A study of Saccharomyces cerevisiae with 4 samples.

Results

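The genes of the mitochondrial respiratory chain and ATP synthase of *Saccharomyces cerevisiae* were followed in cells treated with zymolyase, a wall-lytic enzyme mixture whose main substrate is wall glucan. Genes were taken by their standard symbol: COX, QCR, ATP or SDH with a number, or *CYT1*, *CYC1*, *CYC7*, *RIP1*, *COR1*, *NDE1*, *NDE2* or *NDI1*, with a value on at least 3 of 4 arrays. In all, 48 genes met this rule, out of 4429 genes with as many values and 6172 genes in the table. Of the 48, 44 had a value on all 4 arrays and could enter the main test, and 4 (*QCR9*, *COX18*, *ATP17* and *ATP22*) had a value on 3.

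The treated cells were a *mid2* mutant of strain BY4741, a laboratory haploid, kept for 3 h with zymolyase at 0.8 units per ml. The untreated cells were the other part of the same culture, also *mid2* mutant, grown for the same time without the enzyme, and both grew in the rich medium YEPD at 24 °C. Mid2 senses wall stress at the cell surface and signals to the cell wall integrity pathway, and cells with an intact *MID2* gene were not analysed here, so the values describe the mutant alone. The 4 two-colour arrays came, per the labels, from 2 cultures with a dye swap of each. Cy3 held the treated RNA on arrays 1 and 3, and Cy5 held it on arrays 2 and 4. Which arrays belong to 1 culture, and how the *mid2* allele was made, is not stated in the labels.

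*MID2* had no value on any array, so the genotype could not be checked. On array 4 a *hog1* mutant is named in a comment on the untreated RNA, and *HOG1* read 0.20, 0.55, -0.15 and 0.26 (log2 ratio) on arrays 1 to 4. The arrays held values for 3585 to 4965 of 6207 rows, and array 2 had the fewest. All values below are log2 ratios, 1 per gene and array. Neither the numerator nor the base of the logarithm is stated in the sources used here. The direction, treated over untreated, is called likely because 10 genes known to be induced by zymolyase had medians between 1.65 and 2.35 on the 4 arrays. The lowest reading among the 10, taken on each array separately, was 1.07, -1.57, 1.13 and 0.07 on arrays 1 to 4. At least 1 of the 10 thus lay below 0 on array 2, and at least 1, not necessarily the same gene, near 0 on array 4. The arrays were not centred alike: their medians over the 3299 genes with 4 values were -0.02, -0.37, -0.04 and -0.07. Centring each array on its median raised the mean of every gene with 4 values by 0.13, and means are therefore also read against the median of all genes. A ratio of bulk RNA cannot tell a change in RNA per cell from a change in the mix of cells.

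Yeast has no proton-pumping complex I. Electrons from NADH enter the inner mitochondrial membrane through single-protein dehydrogenases, Ndi1 on the matrix side and Nde1 and Nde2 on the outer side, and electrons from succinate enter through complex II (succinate dehydrogenase). Ubiquinone carries them to complex III (the cytochrome bc1 complex), cytochrome c carries them to complex IV (cytochrome c oxidase), and ATP synthase uses the resulting proton gradient. Most of these genes are known to be repressed in cells that ferment glucose and to be activated by the Hap2/3/4/5 complex. Some, such as *CYC1*, are also activated by Hap1 in the presence of oxygen and heme.

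After 3 h of zymolyase, 1 of the 44 respiratory genes tested rose, *NDE1*, and 0 fell (limma, adjusted p under 0.05 under both possible pairings of arrays into cultures). That is 2.27% of the respiratory genes, against 4.15% of all 3299 genes, of which 2.76% were called upward and 1.39% downward. At an unadjusted p under 0.05 the count was also 1 of 44, against 10.8% of all genes. None of the 44 changed by 2-fold on average, a size that 3.03% of all genes reached. The means of the 44 genes ran between -0.46 for *CYC1* and 0.86 for *NDE1*, with a median of -0.04, against -0.14 for all genes. Their mean lay above the median of all genes in 29 of 44 cases (65.9%, against 50% of all genes). By array, the median of the respiratory genes exceeded that of all genes by 0.14, 0.08, 0.25 and 0.12 on arrays 1 to 4. Without array 3 the excess of the median over that of all genes was 0.0032, against 0.10 with all arrays.

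The precision limits what these counts can say. The standard error was 0.28 for each of the 44 means, and 0.28 to 0.42 over all genes. With arrays 1 and 2 paired, limma gave all genes the same pooled variance. The 95% confidence interval of each of the 44 was therefore 0.54 to either side on the log2 scale, whatever the gene's own SD. *COX5A* (SD 0.07) and *COX9* (SD 1.10), for example, had intervals of the same width. The call was thus close to a cut on size. The smallest mean called among all genes was 0.852 in size, and the largest not called was 0.849. A gene that is not called here is therefore not shown to be unchanged.

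**Figure D1:**
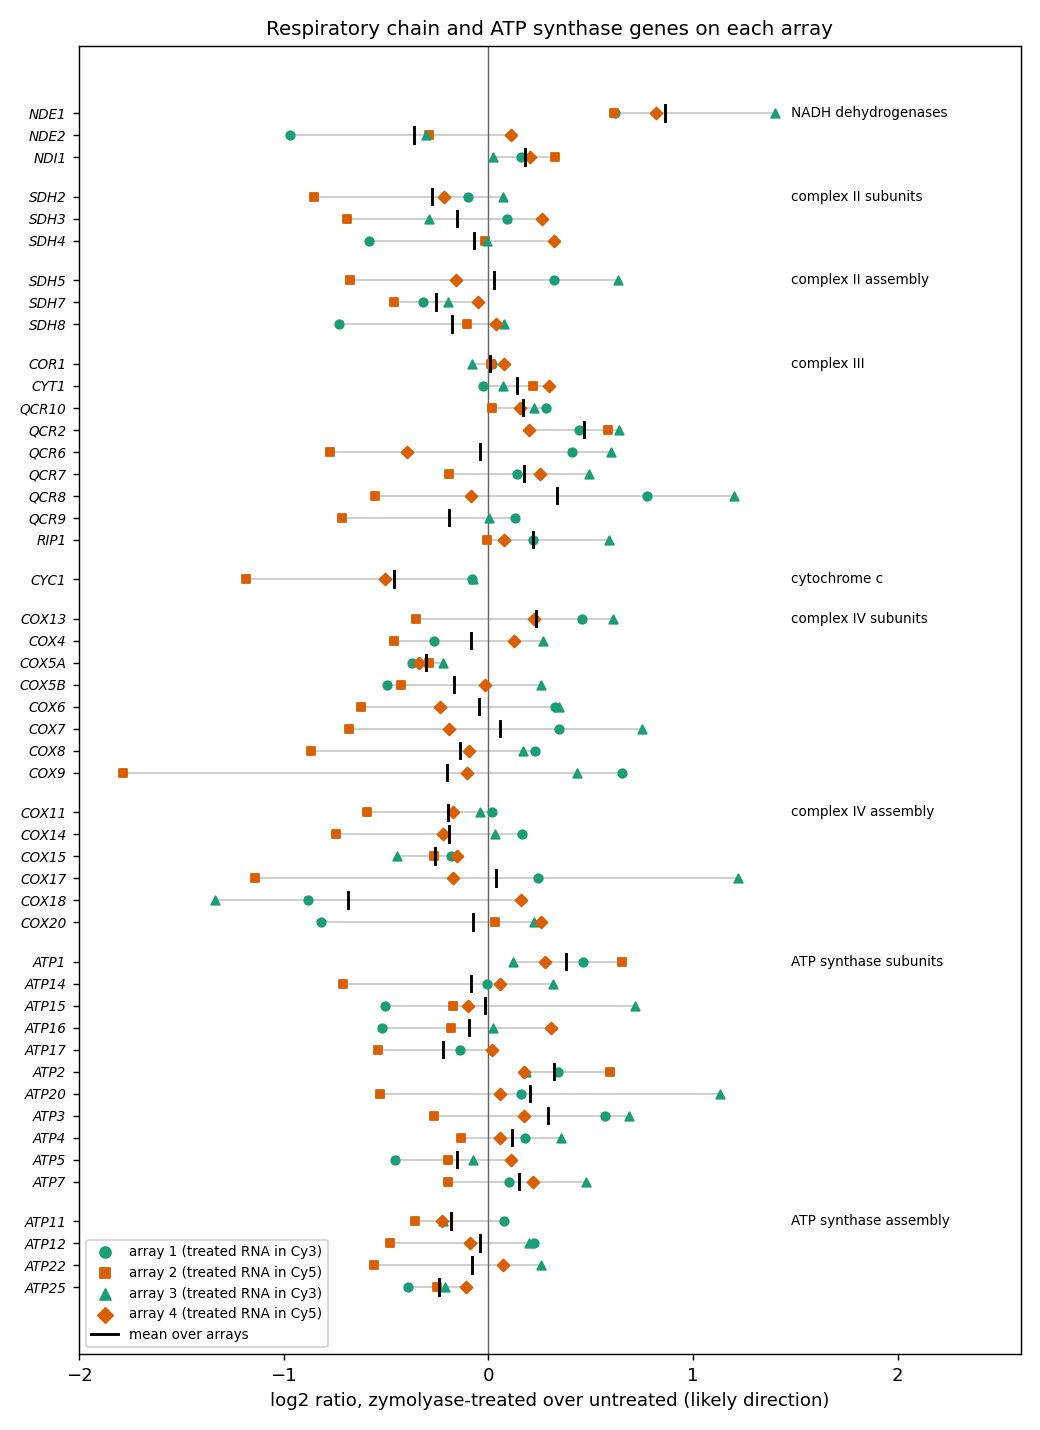
Log2 ratio of treated over untreated cells (horizontal axis, likely direction) for each of the 48 genes, grouped by role, with 1 symbol per array, colour for the dye that held the treated RNA and a black bar for the mean over the arrays with a value. *NDE1* is the only gene whose mean exceeds 0.5, and several genes of complexes III and IV read above 0 on arrays 1 and 3 and below 0 on arrays 2 and 4.

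Among the NADH dehydrogenases, *NDE1*, for the outward-facing enzyme that oxidises cytosolic NADH, read 0.62, 0.61, 1.40 and 0.82 on arrays 1 to 4. All 4 arrays were above 0, and array 3 was the highest. Its mean was 0.86 ± 0.37 (SD over 4 arrays of 2 cultures), or 1.82-fold, and it exceeded 97.3% of all genes (limma, adjusted p = 0.0451). That mean lies just inside the threshold, next to the smallest called mean. The call held after centring (adjusted p = 0.0189) but was lost when arrays were also scaled to 1 spread (adjusted p = 0.139). It was also lost when genes with 3 values were admitted (adjusted p = 0.128), without a dye term on 4 arrays (adjusted p = 0.0759) and when any array was left out. Leaving out array 1 gave an adjusted p of 0.463, array 2 of 0.0981, array 3 of 0.421 and array 4 of 0.192, with values of 0.69 to 0.96.

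The other outward-facing enzyme gene, *NDE2*, read -0.97, -0.29, -0.30 and 0.11, and did not pass (mean -0.36 ± 0.45, 95% interval -0.90 to 0.18). *NDE1* was above *NDE2* on every array, by 0.71 to 1.71 on the log2 scale, a difference that was not tested. *NDI1*, for the matrix-facing enzyme, read 0.16, 0.33, 0.02 and 0.21, all above 0, with a mean of 0.18 ± 0.13 that did not pass. The 3 genes for enzymes of 1 reaction thus held the highest and the second lowest mean of the 44, with *NDI1* between them.

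Complex II was measured through *SDH2*, for its iron-sulfur subunit, *SDH3* and *SDH4*, for its membrane anchors, and 3 assembly factor genes. *SDH2* read -0.10, -0.85, 0.07 and -0.22, *SDH3* 0.09, -0.69, -0.29 and 0.26, and *SDH4* -0.58, -0.02, -0.01 and 0.32. No common direction appears, and the medians of the 3 by array were -0.10, -0.69, -0.01 and 0.26. *SDH1*, for the flavoprotein subunit, had 2 values (-0.23 on array 3 and 0.42 on array 4) and did not enter the set. Of the assembly factor genes, *SDH7* was below 0 on every array (-0.32, -0.46, -0.20 and -0.05). After centring it was above the array median on array 4. *SDH8* averaged -0.18 ± 0.37, and *SDH5*, whose product helps to attach FAD to Sdh1, averaged 0.03 ± 0.57.

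Complex III lay above the median of all genes in the means of its genes with 4 values, but not every gene did so on each array. After centring, *QCR2*, *QCR7*, *QCR10* and *RIP1* were above the median on each array, and *QCR6*, *QCR8*, *COR1* and *CYT1* were not. Of the 8 complex III genes with 4 values, all had a centred mean above 0, against 46.9% of all genes, and 0 passed the test. *QCR9*, with 3 values, had a centred mean of -0.05. *QCR2*, for a core protein of the matrix side, read 0.44, 0.58, 0.64 and 0.20. Every array was above 0, and its mean of 0.47 ± 0.20 was the second highest of the 44 (95% interval -0.08 to 1.01, limma adjusted p = 0.628). *COR1*, for the other core protein, read 0.02, 0.01, -0.08 and 0.08, close to 0 on every array, and averaged 0.01 ± 0.06. Of the electron-carrying subunits, *CYT1*, for cytochrome c1, read -0.03, 0.22, 0.07 and 0.30, and *RIP1*, for the Rieske iron-sulfur protein, read 0.22, -0.01, 0.59 and 0.08.

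The small subunits of complex III fell into different patterns over the arrays. *QCR10* (0.28, 0.02, 0.22 and 0.15) was above 0 throughout, and *QCR7* (0.14, -0.19, 0.49 and 0.25) was above the median of each array. *QCR8* read 0.78, -0.55, 1.20 and -0.08, and *QCR6* read 0.41, -0.78, 0.60 and -0.40. Both were thus above 0 where treated RNA was in Cy3 and below 0 where it was in Cy5, and their means of 0.34 ± 0.80 and -0.04 ± 0.65 combine opposite readings. *QCR9* had no value on array 4 and read 0.13, -0.72 and 0.00 on arrays 1 to 3. In the fit that admits genes with 3 values, where a culture with a missing array is represented by the other, its adjusted p was 0.933.

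Cytochrome c is encoded by *CYC1*, the isoform of aerobic cells, and *CYC7*, the isoform favoured at low oxygen. *CYC1* read -0.08, -1.18, -0.07 and -0.50, below 0 on every array, and its mean of -0.46 ± 0.52 was the lowest of the 44 (limma adjusted p = 0.636, with a 95% interval that reached up to 0.08). It was the only one of the 44 below the median of every array, a pattern found in 2.27% of the respiratory genes and 8.67% of all genes. Its readings were near 0 on arrays 1 and 3, so the low mean came from arrays 2 and 4, where Cy5 held the treated RNA. *CYC7* had values on 2 arrays only, 0.57 on array 3 and -0.24 on array 4, and was not part of the set.

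The 8 nuclear genes for complex IV subunits had a median of -0.11, and 4 of the 8 had a centred mean above 0. The highest was *COX13*, for a peripheral subunit, at 0.46, -0.35, 0.61 and 0.22. Cox5 exists as 2 alternative subunits, *COX5A* of aerobic cells and *COX5B* of low oxygen. *COX5A* was low on every array (-0.37, -0.29, -0.22 and -0.34), with a mean of -0.31 ± 0.07 and a 95% interval from -0.85 to 0.24. *COX5B* read -0.50, -0.43, 0.26 and -0.02. The difference of *COX5A* minus *COX5B* was 0.12 and 0.14 on arrays 1 and 2 and -0.48 and -0.33 on arrays 3 and 4, so the isoforms showed no common order. After centring, *COX5A* was above the median of array 2, as that array was lower as a whole.

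*COX6*, *COX7*, *COX8* and *COX9*, which encode other nuclear subunits of the oxidase, shared the pattern of *QCR8*. *COX9* read 0.65, -1.79, 0.43 and -0.11, and *COX7* read 0.34, -0.68, 0.75 and -0.19. *COX6* (0.33, -0.62, 0.34 and -0.23) and *COX8* (0.23, -0.87, 0.17 and -0.09) were likewise above 0 on arrays 1 and 3 and below 0 on arrays 2 and 4. *COX4*, by comparison, read -0.27, -0.46, 0.27 and 0.13, where the split lay between arrays 1 and 2 and arrays 3 and 4. *COX12* had values on 2 arrays, -1.65 on array 2 and -0.40 on array 4, and fell outside the set.

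The complex IV assembly genes averaged between -0.26 and 0.04 where 4 values existed, and 0 of the 5 passed. *COX17*, whose product carries copper towards the oxidase, read 0.24, -1.14, 1.22 and -0.17. Its SD of 0.98 was the second largest of the 44, after that of *COX9* (1.10). *COX11*, which inserts copper into Cox1, read 0.02, -0.60, -0.04 and -0.17, and *COX14* read 0.17, -0.74, 0.03 and -0.22. *COX15*, for heme A synthesis, was below 0 on every array (-0.18, -0.27, -0.44 and -0.15), but after centring it was above the median of array 2. *COX20*, for a chaperone of Cox2, read -0.82, 0.03, 0.22 and 0.26, with array 1 alone below 0. *COX18*, for a factor that inserts part of Cox2 into the membrane, had no value on array 2 and read -0.88, -1.34 and 0.16 on arrays 1, 3 and 4. Its mean of -0.69 over 3 arrays was the lowest of the 48, with array 4 apart in sign, and it did not pass in the fit that admits 3 values (adjusted p = 0.271).

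ATP synthase consists of the catalytic F1 head, a rotor, a stator and membrane subunits. In the head, *ATP1*, for the alpha subunit, read 0.46, 0.65, 0.12 and 0.28, and *ATP2*, for the beta subunit, read 0.34, 0.59, 0.18 and 0.17. Both were above 0 on every array and were highest on array 2, where 9 of the 44 genes were above 0. Their means were 0.38 ± 0.23 and 0.32 ± 0.20, and the difference between them was within 0.13 on each array. Neither passed (limma, adjusted p = 0.770 and 0.815), and their 95% intervals ran from -0.16 to 0.92 and from -0.22 to 0.86.

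The gamma subunit gene *ATP3*, for the central shaft, read 0.57, -0.27, 0.69 and 0.18. Of the other shaft genes, *ATP16*, for the delta subunit, read -0.52, -0.18, 0.02 and 0.30, and *ATP15*, for the epsilon subunit, read -0.51, -0.17, 0.72 and -0.10. Among the stator genes, *ATP4* averaged 0.11 ± 0.21 and *ATP7* 0.15 ± 0.28, while *ATP5* averaged -0.15 ± 0.24 and *ATP14* -0.09 ± 0.44. *ATP4* and *ATP7* were above the median of each array. Of the membrane subunit genes, *ATP20*, which acts in dimer formation, read 0.16, -0.53, 1.13 and 0.06. *ATP17* had no value on array 3 and read -0.14, -0.54 and 0.02 on arrays 1, 2 and 4. In total, 9 of 10 ATP synthase subunit genes with 4 values had a centred mean above 0, and *ATP5* was the exception. The centred mean of *ATP17*, with 3 values, was -0.07.

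The assembly genes of ATP synthase lay lower, with means between -0.24 and -0.04. *ATP25* was below 0 on every array (-0.39, -0.25, -0.21 and -0.11), but after centring it was above the median of array 2. *ATP11* and *ATP12*, for chaperones of the F1 head, averaged -0.18 ± 0.18 and -0.04 ± 0.33, and *ATP22*, with no value on array 1, read -0.56, 0.26 and 0.07 on arrays 2 to 4. Of these, only the centred mean of *ATP12* and that of *ATP22* were above 0.

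**Figure D2:**
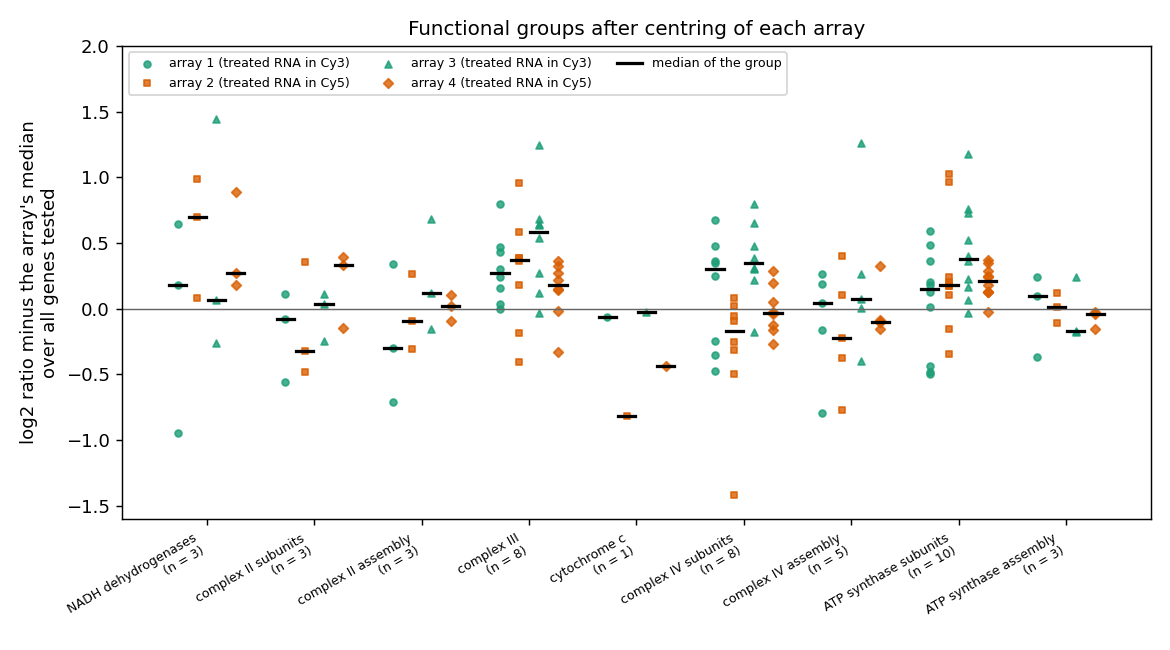
Log2 ratio minus the median of all genes tested on the same array (vertical axis) for the 44 genes with 4 values, split by role, with a column of points per array and a bar at the group's median on that array. The bars of the NADH dehydrogenases, of complex III and of the ATP synthase subunits are above 0 on all 4 arrays. Those of the complex IV subunits and of the complex IV assembly genes are above 0 on arrays 1 and 3 and below 0 on arrays 2 and 4.

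Read by consistency of sign, 6 of the 44 genes were above 0 on all 4 arrays (*NDE1*, *NDI1*, *QCR2*, *QCR10*, *ATP1* and *ATP2*), or 13.6%, against 6.15% of all genes. Below 0 on all 4 arrays were 5 (*SDH7*, *CYC1*, *COX5A*, *COX15* and *ATP25*), or 11.4%, against 17% of all genes. These counts depend on the centre of the arrays. After centring, 12 of the 44 (27.3%, against 10% of all genes) were above the median on each array, which adds *QCR7*, *RIP1*, *COX13*, *ATP3*, *ATP4* and *ATP7*. They were 2 of 3 NADH dehydrogenase, 4 of 8 complex III, 1 of 8 complex IV subunit and 5 of 10 ATP synthase subunit genes. No complex II subunit gene (of 3) was among them. Nor was any assembly gene, of 3 for complex II, 5 for complex IV and 3 for ATP synthase. In groups of this size a share of 10% would give few genes. Below the median on each array after centring was 1 of the 44 (*CYC1*), or 2.27%, against 8.67% of all genes. No test was made of these shares.

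Many readings of the set differed between the dye orientations. Across the 44 genes, which are not independent replicates, arrays of the same orientation correlated at Pearson 0.57 (arrays 1 and 3) and 0.67 (arrays 2 and 4). Between orientations the 4 values were -0.08, 0.02, -0.03 and 0.20. Over all 3299 genes the corresponding values were 0.48 and 0.42 within an orientation. Between orientations they were uneven: arrays 1 and 2 correlated at 0.39, as did arrays 3 and 4. Arrays 1 and 4 reached 0.14 only, and arrays 2 and 3 reached 0.13. Whether the pairs with the higher values share a culture was not tested. By rank (Spearman) the set had 0.62 and 0.69 within an orientation and -0.12 to 0.08 between orientations, and all genes had 0.41 and 0.39 within and -0.08 to 0.14 between, so ranks agreed little between orientations in all genes as well. Arrays of 1 orientation share the dye of each RNA, and all 4 share the spots.

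In 20 of the 44 genes (45.5%) both arrays with treated RNA in Cy3 read above both with it in Cy5, against 29.4% of all genes, and in 3 (*NDE2*, *NDI1* and *CYT1*) both read below, against 15.6%. After centring the counts were 16 (36.4%, against 22.2%) and 11 (25%, against 25.7%). The median difference, Cy5 minus Cy3, was -0.26 in the set and -0.14 in all genes, and -0.07 and 0.04 after centring. Among roles with more than 1 gene the difference was largest in the complex IV subunits, with a median of -0.64 and values from -1.49 (*COX9*) to -0.02 (*COX5A*), and complex III spanned -1.31 (*QCR8*) to 0.23 (*CYT1*).

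In a fit of the 4 arrays with a term for dye, which treats the arrays as independent, the dye term had an unadjusted p under 0.05 for *QCR8*, *QCR6*, *COX17*, *COX9*, *COX7* and *SDH5*. These 6 are 13.6% of the set, close to the 12.9% of all genes, and all 6 were higher with treated RNA in Cy3, a direction in which 9.4% of all genes passed. After adjustment 0 of 3299 genes passed for the dye term (limma, 427 at an unadjusted p under 0.05), and the smallest adjusted p of the 44 was 0.285. For these 6 genes the SD over arrays exceeds the size of the mean. That SD includes the difference between orientations, so it does not show whether their direction was resolved. In the main test, which averages both orientations, the confidence interval of each of the 6 means included 0. Their direction after zymolyase was thus not resolved, which holds for all of the 44 except *NDE1*.

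**Figure D3:**
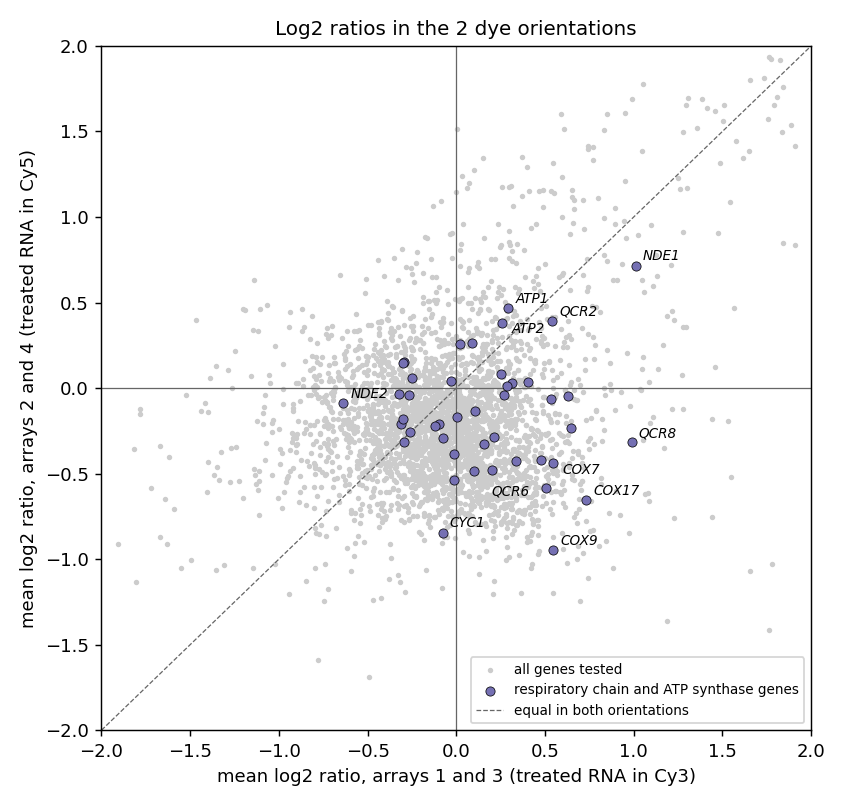
Mean log2 ratio of arrays 1 and 3 (horizontal axis) against that of arrays 2 and 4 (vertical axis) for the 44 respiratory genes (purple) and all genes tested (grey), with the dashed line at equal values; 33 grey genes lie outside the frame. *NDE1*, *QCR2*, *ATP1* and *ATP2* are in the upper right, whereas *QCR8*, *COX17*, *COX9*, *COX7* and *QCR6* are in the lower right, above 0 in 1 orientation and below 0 in the other.

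Related genes outside the naming rule were read as 6 lists, and 0 of their 54 tested genes passed in either direction, against 4.15% of all genes. For 19 assembly and translation factors the median was -0.10, between -0.55 for *PET117* and 0.08 for *CBP4*, which act in the assembly of complexes IV and III. For 9 genes of coenzyme Q synthesis the median was -0.01. The monooxygenase gene *COQ6* was the highest, at 0.67, 0.27, 0.54 and 0.27, and *CAT5*, also called *COQ7*, the lowest at -0.31 ± 0.30. The 7 heme synthesis genes had the lowest median, -0.23, with *HEM13*, for the oxygen-dependent coproporphyrinogen oxidase, at -0.37, -0.74, -0.69 and -0.25 and *HEM15*, for ferrochelatase, at 0.21 ± 0.15.

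Of 7 genes for ATP synthase inhibitors and for exchange of ADP, ATP and phosphate, the highest was *STF2*, whose product was described as a stabiliser of the inhibited ATP synthase. It read 1.14, 0.44, 1.41 and 0.27, with a mean of 0.82 ± 0.55 just short of the threshold (limma, adjusted p = 0.0667). The lowest was *AAC3*, the ADP/ATP carrier gene of low oxygen, at -0.42 ± 0.33. Among 5 genes for other electron routes, *MCR1*, a mitochondrial NADH-cytochrome b5 reductase gene, averaged 0.32 ± 0.21 and *CYB5*, for cytochrome b5, -0.54 ± 0.25. Of 7 regulators, *HAP1* read 1.68, -0.36, 0.66 and -0.34, with the same split by orientation as *QCR8*, and *HAP3*, for a DNA-binding subunit of the Hap complex, averaged -0.54 ± 0.45. *HAP4* did not have 4 values and was not tested.

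**Figure D4:**
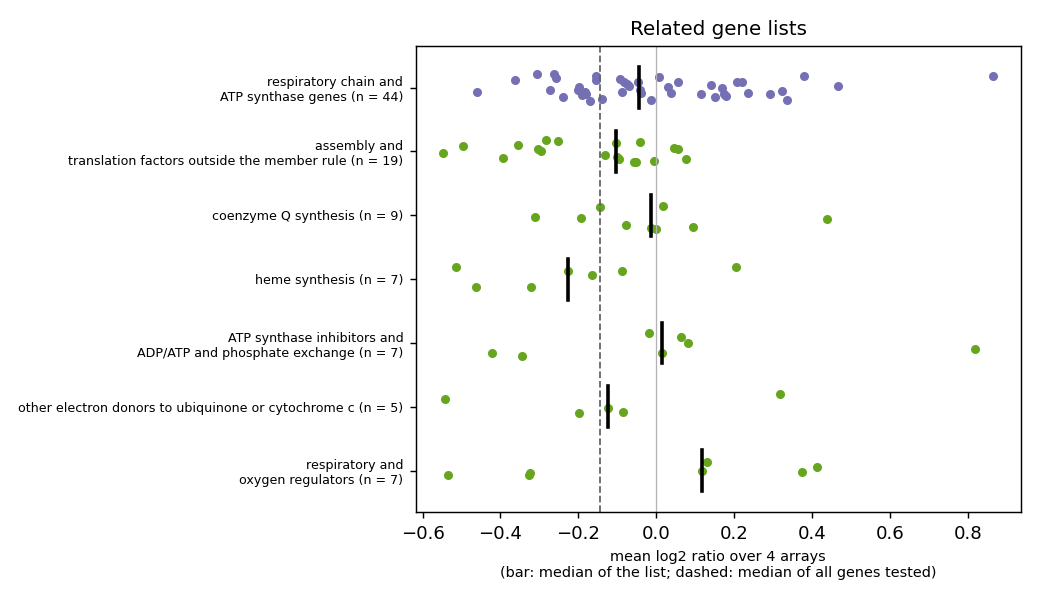
Mean log2 ratio over 4 arrays (horizontal axis) of each gene in the respiratory set (purple) and in 6 related lists (green), with a black bar at each list's median and a dashed line at the median of all genes tested, -0.14. The medians of the lists lie between -0.23 (heme synthesis) and 0.12 (regulators), and *NDE1* and *STF2* are the rightmost points.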

How the data were processed

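The deposited values are 1 number per ORF and array, read here as log2 ratios. How the authors normalized them, which channel is the numerator and why values are blank is not given in the sources used here. Scanner files were not used here. Spot brightness is unknown, so the number of arrays limits the precision. Of 6207 rows (2 control rows left out), 5654 matched a locus tag and 57 a synonym in RefSeq's gene list for assembly R64, from which names alone were taken. Rows of a gene were averaged. Of 67 symbols that meet the naming rule, 57 had a row, 9 of these had fewer than 3 values, and the other 10, among them the mitochondrially encoded subunits, were not analysed here. No sequences were used here, so the planned motif search was not run.

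Arrays of 1 culture were averaged, and lmFit and eBayes (limma 3.58.1, R 4.3.3) tested the 2 resulting means against 0 over the 3299 genes with 4 values. As the labels do not pair arrays with cultures, the larger p of both possible pairings was kept, and genes were called at a Benjamini-Hochberg adjusted p under 0.05. The calling procedure was tested on simulated data with independent arrays, equal spread for all genes of an array, and no dye or culture effect. That simulation could not show how calls behave where arrays share a dye or a culture. Every member could be named; of the related lists, the highest and lowest gene and any that passed. Members and lists were chosen with earlier results of these data known. Alternatives changed the centring, scaling, missing-value filter, pairing, dye term, prior and arrays used.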

Additional observations from a re-analysis of the deposited data

How the results depend on the processing

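The 4 arrays of 2 cultures and the unknown spot brightness limit every result. Respiratory genes past the threshold numbered 1 of 44 with all arrays, after centring, with either pairing alone, with a dye term and with a robust prior. They numbered 0 (limma) after centring and scaling (6 at an unadjusted p under 0.05), with at least 3 values (2 of 48), without a dye term (2) and without any single array (1 to 3). Genes past the threshold numbered 137 in all, 2 after scaling, 47 with at least 3 values, 306 with arrays 1 and 4 paired, 65 without a dye term and 5 to 101 without single arrays (5 without array 4, 47 without array 1, 73 without array 2). Respiratory genes above 0 on all 4 arrays numbered 6, and 12 after centring. The median of the set lay above that of all genes by 0.0032 to 0.16 without single arrays, lowest without array 3. The sign of the mean turned in 10 of 48 genes on centring and in 12 with either orientation alone. The test of orientation was added after the data were seen.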
